A study of Mus musculus with 18 samples.

Results

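The genes that take up, make, bind, sense and break down retinoic acid were followed through 18 RNA sequencing libraries of cells derived from mouse embryonic stem cells. The genes are Crabp1, Crabp2, Stra6, Rarb, Dhrs3, Aldh1a2, Cyp26a1, Cyp26b1 and Cyp26c1. They were picked by name and not by a threshold on their values, and all 9 were found by their Ensembl identifiers among the 37224 genes of the table. The 6 groups held 3 libraries each, and the strain was C57BL/6 in all of them. Neural progenitors expressing Hoxb1 were given doxycycline (DOX) together with SAG, an agonist of Smoothened that turns on hedgehog signalling. Their counterparts not expressing Hoxb1 were given SAG and no DOX. Without SAG, neural progenitors expressing Hoxb1 were given DOX, and those not expressing Hoxb1 were given neither agent. The remaining pair of groups were Hoxb1-null and wild-type neuromesodermal progenitors (NMPs), cells from which both the spinal cord and the paraxial mesoderm can form. Hoxb1 is a homeobox gene of the hindbrain, and the study asks what it does in these cells. Every Hoxb1 culture of neural progenitors had DOX and no other did, so Hoxb1 and DOX cannot be told apart. The construct that DOX switches on, the lines or clones used, and whether the culture media held retinoic acid are not stated by the labels. Nor do these say that the libraries of a group came from separate cultures, so the p-values measure the spread between these libraries, which may be technical.

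Retinoic acid is made from retinol (vitamin A) by successive oxidations. Retinol enters cells through the membrane receptor encoded by Stra6, retinol dehydrogenases such as Rdh10 oxidise it to retinaldehyde, and the Aldh1a enzymes oxidise retinaldehyde to retinoic acid; Aldh1a2 is the main one of the early trunk mesoderm. Dhrs3 encodes a reductase that turns retinaldehyde back into retinol. In the cytoplasm retinoic acid is bound by the proteins of Crabp1 and Crabp2, and the cytochromes P450 of the Cyp26 genes oxidise it to inactive products. In the nucleus it binds the receptors Rara, Rarb and Rarg, which act with retinoid X receptors on paired hexamers in DNA. Rarb and Cyp26a1 are themselves classical retinoic acid target genes. In the embryo, retinoic acid from the somites patterns the hindbrain and spinal cord, and Cyp26 enzymes keep it out of the tail bud and of anterior tissue.

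Promoter windows of 300 bases, from 250 bases before to 50 after an annotated start, were taken from RefSeq (GRCm38.p6) for 8 of the 9 genes. They were searched on both strands for a direct repeat of hexamers spaced by 5 bases of any kind. Each hexamer could be AGGTCA or AGTTCA, or else GGGTCA or GGTTCA. This is the arrangement of the best studied retinoic acid response elements. It was found in 32 of 32851 mouse windows (0.0974%), and among the 9 genes in the windows of Rarb and Cyp26a1. Both windows are shown because they carry the repeat, which is in capitals, and each is written 5′ to 3′ on the strand of its gene. Rarb is on the minus strand at chr14:16575427-16575726, and Cyp26a1 on the plus strand at chr19:37697558-37697857.
Rarb: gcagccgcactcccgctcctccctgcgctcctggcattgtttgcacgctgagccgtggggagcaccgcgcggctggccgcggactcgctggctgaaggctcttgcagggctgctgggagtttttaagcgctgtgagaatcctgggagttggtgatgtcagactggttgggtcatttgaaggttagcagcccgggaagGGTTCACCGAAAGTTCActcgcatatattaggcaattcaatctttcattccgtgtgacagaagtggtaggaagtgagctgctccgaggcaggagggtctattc
Cyp26a1: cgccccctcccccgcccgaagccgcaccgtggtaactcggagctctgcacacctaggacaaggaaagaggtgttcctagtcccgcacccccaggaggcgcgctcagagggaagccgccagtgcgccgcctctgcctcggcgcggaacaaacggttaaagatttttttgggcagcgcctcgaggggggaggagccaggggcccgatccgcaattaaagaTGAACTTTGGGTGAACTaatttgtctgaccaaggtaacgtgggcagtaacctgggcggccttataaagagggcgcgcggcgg
In Rarb the repeat reads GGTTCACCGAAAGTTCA and spans positions -53 to -37 from the start. In Cyp26a1 it lies on the opposite strand, where it reads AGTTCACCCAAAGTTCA, at positions -32 to -16. Read in these directions the repeats are identical at 15 of 17 bases and differ by G1A and G9C, with the Rarb base first and positions counted from 1 at the 5′ end of the repeat. The windows of Crabp1, Stra6, Dhrs3, Aldh1a2, Cyp26b1 and Cyp26c1 did not hold these letters. The search describes letters in these windows and says nothing of receptor binding. In all, 31 genes had the repeat in a window, and 6 of them, Rarb and Cyp26a1 included, had enough counts to be tested in neural progenitors.

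Libraries of neural progenitors held 22610407 to 26974315 counts with SAG and 13301476 to 14505711 without it, and those of NMPs held 16523276 to 21141058. The libraries with SAG, those without and the NMPs carry separate runs of library numbers, so SAG and the set of libraries cannot be told apart, while each Hoxb1 comparison lies within 1 set. Hoxb1 itself followed the labels. It averaged 591.2 ± 21.2 CPM (the count relative to library size, with TMM scaling) in Hoxb1 cells with SAG, against 0.459 ± 0.0662 CPM in cells with SAG alone, and 323.1 ± 16 CPM in Hoxb1 cells without SAG, against 0.358 ± 0.288 CPM in cells with neither. In Hoxb1-null NMPs it averaged 15.3 ± 0.844 CPM, against 254.1 ± 16.1 CPM in wild-type NMPs (SD, n = 3 libraries for these and all later means). Markers went with the cell labels: 6 of 6 neural progenitor markers reached 1 CPM in every neural progenitor group, and their summed level there was 808.6 to 1422.5 CPM. In NMPs 6 of 6 NMP markers did so, with sums of 1344.4 to 1419.4 CPM in Hoxb1-null and 1520.8 to 1695.9 CPM in wild-type libraries. There 4 of 6 neural progenitor markers also reached 1 CPM, with sums of 340.6 to 354.7 CPM in Hoxb1-null and 322.9 to 350.3 CPM in wild-type libraries. Most of this was Nes, at 318.2 ± 14.7 CPM in wild-type NMPs, where Sox2 averaged 13.4 ± 1.04 CPM. Replicate 3 of the Hoxb1-null NMPs stood apart from the other libraries of its group, with 5.07 and 3.93 for the chi-square of its counts against theirs, per gene, where theirs differed by 2.33. NMP test results below are therefore also given without this library.

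**Figure D1:**
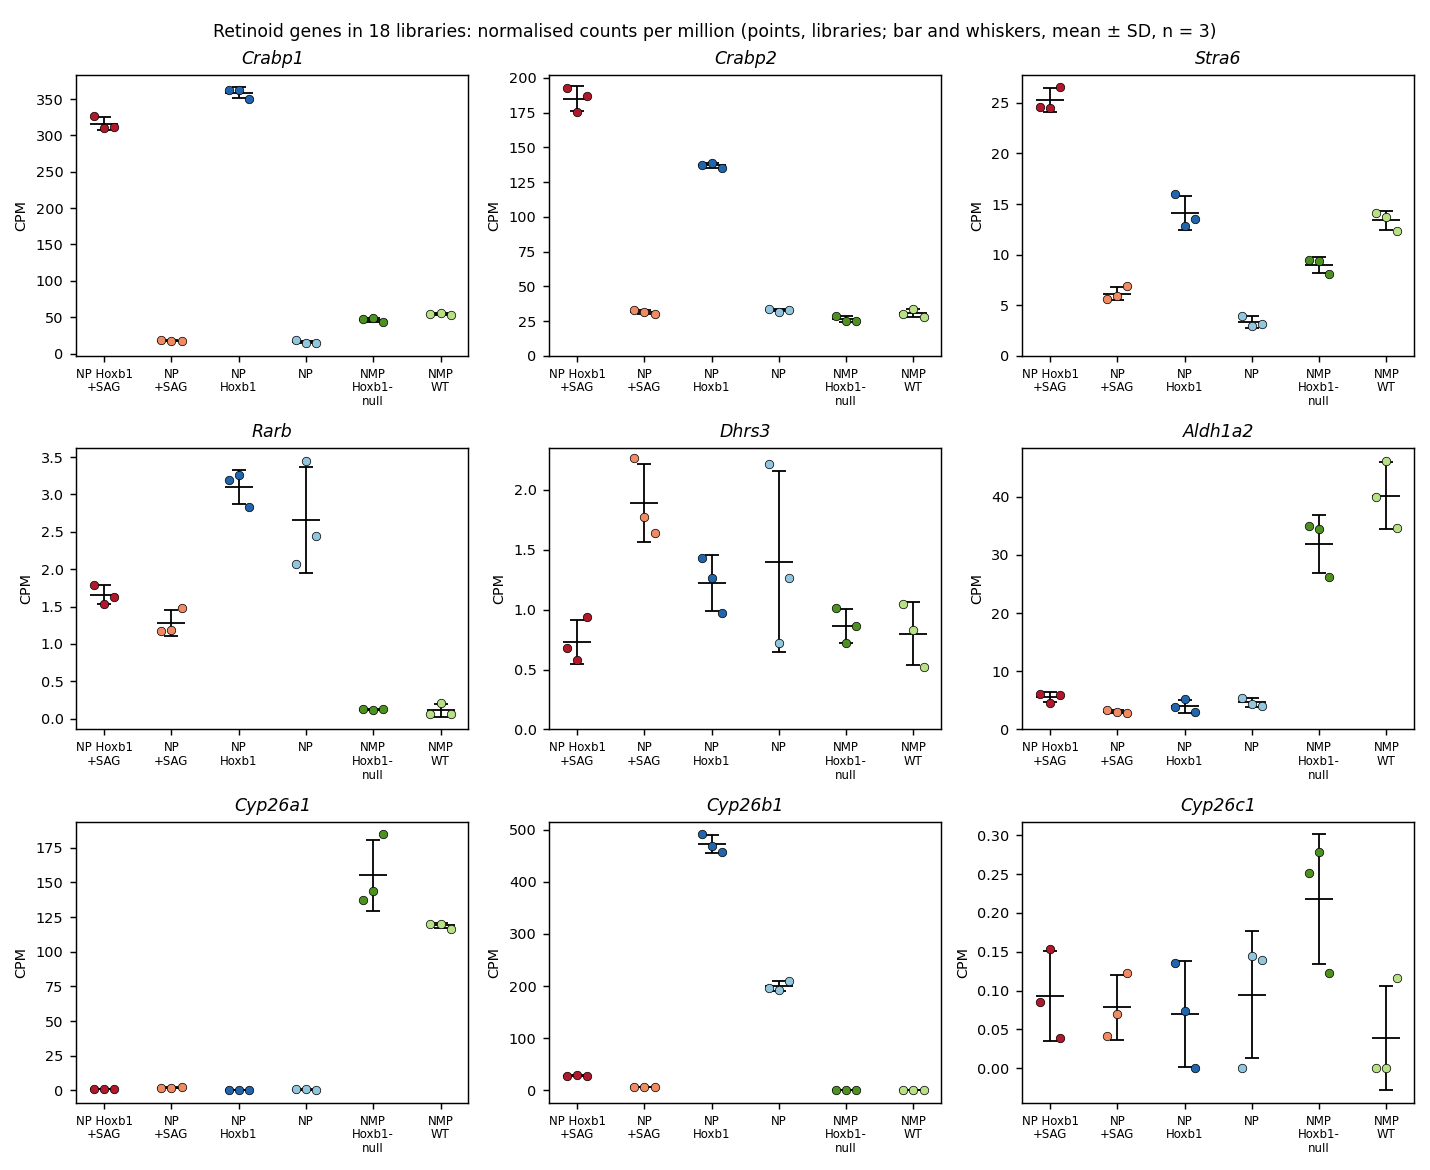
Normalised level in CPM (linear y axes, 1 panel a gene, own scale each) of the 9 retinoid genes in each library of the 6 groups on the x axes, with Hoxb1 groups and SAG groups left of their counterparts; points are libraries, bars are means and whiskers SD (n = 3). Crabp1 and Crabp2 stand highest in the Hoxb1 neural progenitors, Cyp26b1 in the neural progenitors without SAG, and Cyp26a1 and Aldh1a2 in the NMPs.

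With Hoxb1, neural progenitors held far more RNA of the binding proteins Crabp1 and Crabp2, of the uptake receptor Stra6 and of the degrading enzyme Cyp26b1, with SAG and without it. With SAG, the synthesising enzyme Aldh1a2 was also higher and Dhrs3 and Cyp26a1 were lower. Rarb was called in neither comparison. With SAG, 5 of the 8 genes tested were called higher and 2 lower at an adjusted p under 0.05, where 43.4% of all 16238 genes tested were called (21.4% higher and 21.9% lower). Without SAG, 4 of 8 were called higher and 0 lower, where 46.2% of all genes were called (24.1% higher and 22.1% lower). That share called, 4 of 8, is near the share over all genes. The count of 0 called lower (edgeR) was also 0 in DESeq2 and at an unadjusted p under 0.05, and was 1 without replicate 3 of the cells with neither. The libraries of the groups did not overlap for 8 of 8 genes with SAG (50% of all genes) and for 4 of 8 without (53.5%). The median log2 change of the 8 genes was 1.45 with SAG and 0.74 without, against 0.0 over all genes tested in both comparisons. Cyp26c1 had too few counts to be tested in any comparison.

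Crabp1 (ENSMUSG00000032291, mm10 chr9:54764748-54773110, plus strand, 4 exon blocks) encodes the cytoplasmic protein that binds retinoic acid most tightly and is known in the embryo as a hindbrain marker. It measured 326.2, 310.7 and 311.8 CPM in Hoxb1 cells with SAG, against 18.1, 17.0 and 17.5 CPM in cells with SAG alone. Without SAG it measured 363.0, 363.2 and 350.6 CPM in Hoxb1 cells, against 18, 15.1 and 14.9 CPM in cells with neither. Every Hoxb1 library lay far above every library without it. The log2 change was 4.18 with SAG (SE 0.0423, 18.1-fold, edgeR adjusted p = 3.91e-45) and 4.49 without SAG (SE 0.0482, 22.5-fold, adjusted p = 4.02e-44). The effect was smaller with SAG by 0.32 on the log2 scale (difference -0.32, SE 0.074, adjusted p = 0.000716).

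Crabp2 (ENSMUSG00000004885, chr3:87948666-87953376, plus strand) encodes the protein that carries retinoic acid to its nuclear receptors. It measured 192.8, 175.2 and 186.8 CPM in Hoxb1 cells with SAG, against 33.0, 31.7 and 30.4 CPM with SAG alone. In cells without SAG it measured 137.1, 138.8 and 135.0 CPM with Hoxb1, against 33.5, 31.9 and 33.0 CPM with neither. The libraries without Hoxb1 overlapped across SAG states, while those with Hoxb1 were higher with SAG than without it, with no overlap. The change was 2.55 on the log2 scale with SAG (SE 0.0395, 5.85-fold, adjusted p = 1.44e-38) and 2.07 without (SE 0.0462, 4.2-fold, adjusted p = 1.36e-32). The difference of 0.48 (SE 0.0635, adjusted p = 6.08e-08) has the opposite sign to that of Crabp1.

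Stra6 (ENSMUSG00000032327, chr9:58063788-58153996, plus strand), the retinol uptake receptor, was itself first described as a gene stimulated by retinoic acid. It measured 24.6, 24.5 and 26.6 CPM in Hoxb1 cells with SAG, against 5.65, 5.91 and 6.89 CPM with SAG alone. Without SAG it measured 16, 12.8 and 13.5 CPM in Hoxb1 cells, against 3.99, 2.94 and 3.15 CPM with neither. The groups did not overlap in either state. The log2 changes were 2.04 with SAG (SE 0.0818, 4.13-fold, adjusted p = 7.26e-24) and 2.08 without SAG (SE 0.13, 4.22-fold, adjusted p = 2.88e-17). Their difference, -0.03, had a 95% interval of -0.36 to 0.3 and was not called (adjusted p = 0.901).

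Cyp26b1 (ENSMUSG00000063415, chr6:84571414-84593908, minus strand), the Cyp26 gene known for rhombomere-specific expression in the hindbrain, had the highest level per exon length of the 3 degrading enzymes in all neural progenitor libraries but 1, replicate 3 of the cells with SAG alone, where it was at 1.2 CPM per kb and Cyp26a1 at 1.27. It measured 27.0, 29.4 and 27.7 CPM in Hoxb1 cells with SAG, against 6.48, 6.26 and 5.83 CPM with SAG alone. Without SAG it measured 491.0, 468.5 and 458.0 CPM in Hoxb1 cells, against 196.7, 193.0 and 210.5 CPM with neither. Each Hoxb1 group lay above its counterpart with no overlap, but the Hoxb1 libraries with SAG lay below all libraries without SAG. The log2 changes with Hoxb1 were 2.18 with SAG (SE 0.0677, 4.54-fold, adjusted p = 8.54e-28) and 1.25 without (SE 0.0346, 2.38-fold, adjusted p = 2.12e-29), and differed by 0.93 (SE 0.0793, adjusted p = 7.32e-13).

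Aldh1a2 (ENSMUSG00000013584, chr9:71215789-71296243, plus strand), which encodes the retinaldehyde dehydrogenase that makes retinoic acid, was at a low level in all neural progenitors. It measured 6.13, 4.52 and 5.88 CPM in Hoxb1 cells with SAG, against 3.3, 2.96 and 2.83 CPM with SAG alone, a log2 rise of 0.86 (SE 0.141, adjusted p = 3.53e-06). Without SAG it measured 3.89, 5.19 and 2.97 CPM in Hoxb1 cells, against 5.42, 4.45 and 4.07 CPM with neither. These overlapped, the log2 change of -0.21 had an interval of -0.57 to 0.15, and it was not called (adjusted p = 0.357). The effects differed by 1.07 (SE 0.227, adjusted p = 0.000231).

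Dhrs3 (ENSMUSG00000066026, chr4:144892827-144928209, plus strand), the reductase that lowers retinaldehyde, measured 0.681, 0.579 and 0.934 CPM in Hoxb1 cells with SAG, against 2.26, 1.77 and 1.64 CPM with SAG alone. These are 15 to 24 counts and 40 to 54 counts per library, and the groups did not overlap. It fell by 1.35 on the log2 scale (SE 0.252, 2.55-fold, edgeR adjusted p = 2.88e-05). Without SAG it measured 1.43, 1.26 and 0.968 CPM in Hoxb1 cells, against 2.21, 0.718 and 1.26 CPM with neither, so that the cells with neither spanned all of the Hoxb1 values (log2 change -0.19, interval -0.82 to 0.45, adjusted p = 0.665). The difference of the effects, -1.16 (SE 0.409, adjusted p = 0.0237), was lost in DESeq2 (adjusted p = 0.0546) and on leaving out 1 library for 6 of the 12 libraries (adjusted p = 0.0519 to 0.0965).

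Cyp26a1 (ENSMUSG00000024987, chr19:37697808-37701528, plus strand), the Cyp26 gene most directly induced by retinoic acid, was near the limit of counting in neural progenitors. It measured 1.11, 1.04 and 1.28 CPM in Hoxb1 cells with SAG, against 1.97, 2.09 and 2.26 CPM with SAG alone, with no overlap. It fell by 0.87 on the log2 scale (SE 0.216, adjusted p = 0.00104), a call lost when all 18 libraries entered 1 fit (adjusted p = 0.072). Without SAG the counts were 6, 4 and 8 in Hoxb1 libraries, against 10, 15 and 2 in those with neither (log2 change -0.58, interval -1.53 to 0.37, adjusted p = 0.327); without replicate 3 of the cells with neither, the change was -1.06 (adjusted p = 0.0449). The difference of the effects was not called (-0.29, interval -1.37 to 0.8, adjusted p = 0.723).

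Rarb (ENSMUSG00000017491, chr14:16430842-16575472, minus strand), the receptor gene induced by its own ligand, measured 1.79, 1.54 and 1.63 CPM in Hoxb1 cells with SAG, against 1.17, 1.18 and 1.48 CPM with SAG alone. Without SAG it measured 3.2, 3.26 and 2.83 CPM in Hoxb1 cells, against 2.07, 3.45 and 2.45 CPM with neither. The libraries with SAG did not overlap, yet the log2 change of 0.38 (interval -0.03 to 0.79) was not called (adjusted p = 0.127), and neither was that of 0.23 without SAG (interval -0.16 to 0.62, adjusted p = 0.342). Of the 6 tested genes with the direct repeat in their promoter windows, 1 was called higher and 2 lower with Hoxb1 in cells with SAG. Over all genes 43.4% were called there. Without SAG, 0 of the 6 were called higher and 2 lower, where 46.2% of all genes were called. Counts over so few genes do not set those with the repeat apart. Neither Rarb nor Cyp26a1 was called higher in either state. Cyp26c1 (ENSMUSG00000062432, chr19:37685581-37693398), whose end lies 4409 bases before the start of Cyp26a1 and which encodes a further retinoic acid hydroxylase of anterior tissue, had 7 counts in the Hoxb1 libraries with SAG together, 6 with SAG alone, 3 with Hoxb1 alone and 4 with neither.

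**Figure D2:**
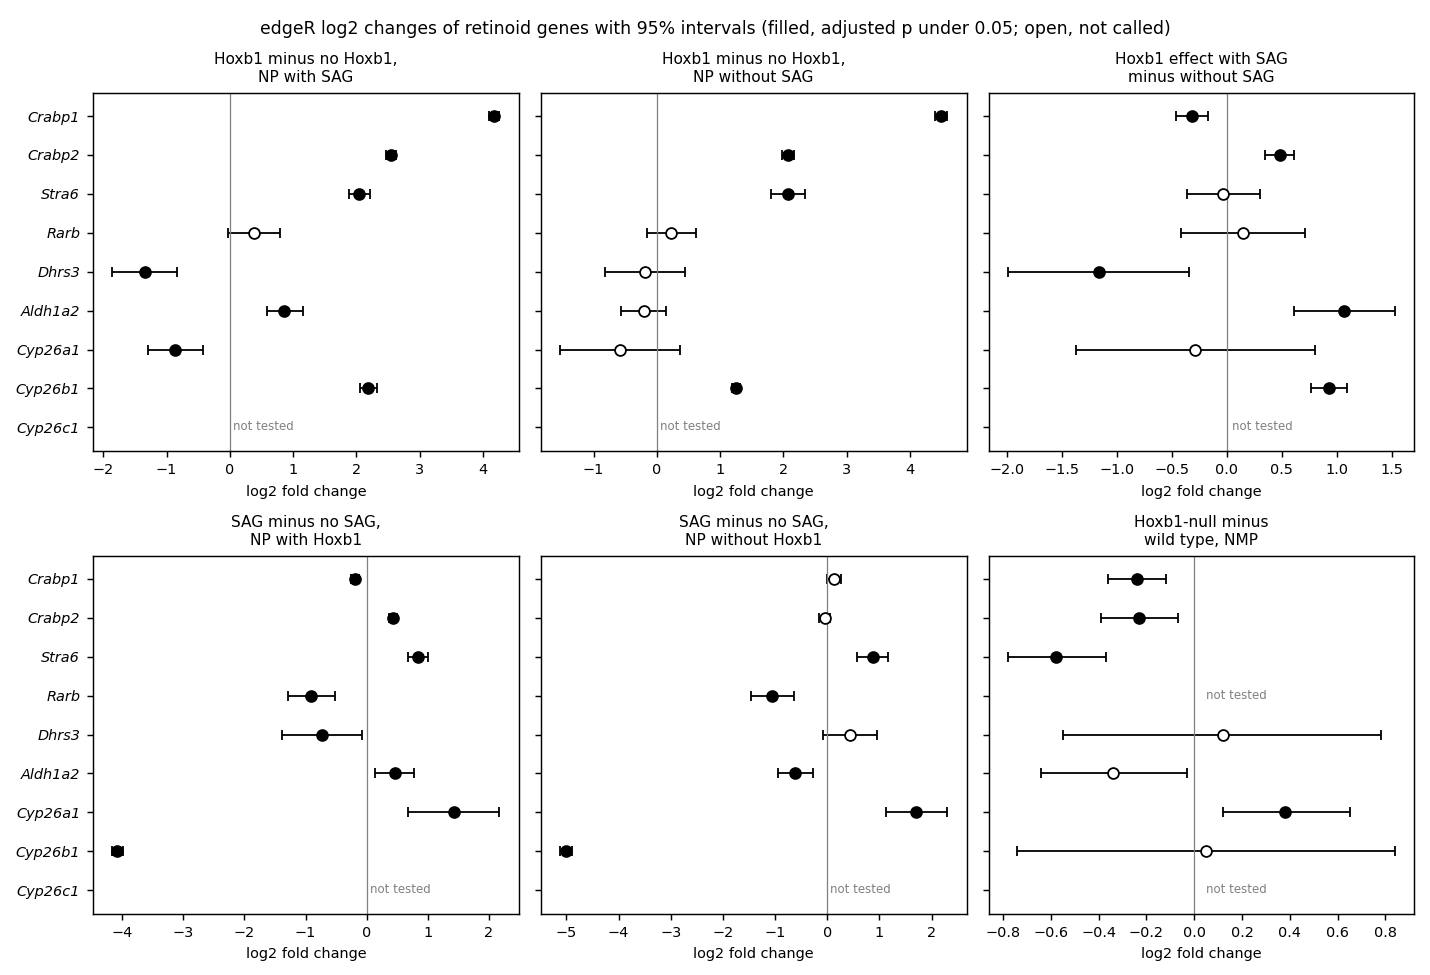
edgeR log2 fold changes (x axes, own scale in each panel) of the 9 retinoid genes (y axes) in the 6 comparisons; points are estimates, whiskers 95% intervals, filled points adjusted p under 0.05 and open points not called. Crabp1, Crabp2, Stra6 and Cyp26b1 lie right of 0 with Hoxb1 in both SAG states, and Cyp26b1 lies at -4.08 and -5.01 with SAG.

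Marker genes of other cell types moved with Hoxb1 in the same libraries, and their part in these changes was not tested. Hindbrain markers, 6 of 6 at 1 CPM or more with Hoxb1, summed to 104.2 to 108.8 CPM in Hoxb1 cells with SAG against 20.7 to 22.1 CPM with SAG alone, and to 150.8 to 154.0 CPM in Hoxb1 cells without SAG against 17.3 to 18.9 CPM with neither. Forebrain and eye markers summed to 124.2 to 128.2 CPM in Hoxb1 cells with SAG against 296.1 to 311.8 CPM with SAG alone, and to 172.5 to 187.4 CPM in Hoxb1 cells against 372.3 to 384.1 CPM with neither; 5 or 6 of the 6 reached 1 CPM. Motor neuron markers, 6 of 6 at 1 CPM with Hoxb1 and SAG and 3 of 6 with SAG alone, summed to 205.4 to 207.9 CPM in Hoxb1 cells with SAG against 25.2 to 27.8 CPM with SAG alone. Without SAG, neuron markers (6 of 6 detected) summed to 1740.5 to 1840.2 CPM with Hoxb1 against 1285.3 to 1362.9 CPM with neither, and neural crest markers (5 of 5) to 111.0 to 116.0 CPM with Hoxb1 against 79.1 to 86.4 CPM with neither. All 6 neuron markers were called higher there. In cells with SAG 2 of the 6 neuron markers were called higher and 2 lower with Hoxb1. Mesenchymal and meningeal markers (9 of 9) summed to 2309.1 to 2506.9 CPM with Hoxb1 and SAG against 2430.7 to 2467.5 CPM with SAG alone, and to 1260.1 to 1302.1 CPM with Hoxb1 against 891.9 to 903.7 CPM with neither. Of these 9, 2 were called higher and 4 lower with SAG, and 6 higher and 1 lower without. Without SAG, Col1a2 averaged 510.0 ± 13.8 CPM with Hoxb1 against 128.3 ± 2.16 CPM with neither. Zic1 went the other way, at 291.7 ± 8.9 CPM with Hoxb1 against 440.9 ± 9.57 CPM with neither. Neural progenitor markers (6 of 6) summed to 808.6 to 853.7 CPM with Hoxb1 and SAG against 1034.8 to 1068.2 CPM with SAG alone, with 4 of 6 called lower. In cells without SAG 4 of these 6 were called higher and 2 lower with Hoxb1. Their sums there overlapped, at 1347.9 to 1360.2 CPM with Hoxb1 and 1309.4 to 1422.5 CPM with neither. Lateral and cardiac mesoderm markers summed to 60.7 to 61.9 CPM with Hoxb1 and SAG (6 of 7 at 1 CPM) against 26.9 to 28.9 CPM with SAG alone (4 of 7), with 5 of 6 tested called higher. Most of this sum was Isl1, which is also in the motor neuron list. Isl1 averaged 44.7 ± 1.49 CPM with Hoxb1 and SAG against 20.2 ± 1.05 CPM with SAG alone. In cells without SAG 1 of the 6 lateral and cardiac mesoderm markers tested was called higher with Hoxb1 and 0 lower. Pluripotency markers (5 of 5) in cells without SAG summed to 98.5 to 116.2 CPM with Hoxb1 against 177.0 to 198.2 CPM with neither, all 5 called lower. In cells with SAG 3 of these 5 were called higher and 2 lower with Hoxb1. Their sums there were 269.3 to 297.5 CPM with Hoxb1 and SAG against 309.7 to 339.7 CPM with SAG alone. In such bulk RNA a change in the number of cells of a type and a change in RNA per cell cannot be told apart.

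SAG went with a loss of most Cyp26b1 RNA. Cyp26b1 fell by 4.08 on the log2 scale in Hoxb1 cells (SE 0.0412, 16.9-fold lower, edgeR adjusted p = 3.7e-45) and, without Hoxb1, fell by 5.01 (SE 0.0544, 32.2-fold lower, adjusted p = 6.23e-44), on the levels given above. Cyp26a1 moved the other way: with Hoxb1 it was at 26, 27 and 33 counts with SAG, against 6, 4 and 8 counts without (log2 1.42, SE 0.371, adjusted p = 0.0008; 0.0623 with all 18 libraries in 1 fit), and without Hoxb1 at 47, 60 and 55 counts with SAG, against 10, 15 and 2 without (1.71, SE 0.294, adjusted p = 2.18e-06). Rarb was lower with SAG in both states, by 0.91 with Hoxb1 (log2 -0.91, SE 0.189, adjusted p = 5.03e-05) and by 1.05 without (log2 -1.05, SE 0.207, adjusted p = 1.95e-05). Stra6 was higher in both, at 0.84 with Hoxb1 (SE 0.0795, adjusted p = 2.53e-12) and 0.87 without (SE 0.141, adjusted p = 7.73e-07).

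For the other genes tested, the direction or the call of the SAG change was not the same with Hoxb1 as without it. The fall of Cyp26b1 with SAG, called in both states, also differed in size between them (difference 0.93, edgeR adjusted p = 7.32e-13). With Hoxb1, Crabp1 fell by 0.19 (adjusted p = 2.28e-06) and Crabp2 rose by 0.43 (adjusted p = 3.62e-14), while without Hoxb1 the changes were 0.13 (interval -0.01 to 0.27, adjusted p = 0.0788) and -0.05 (interval -0.15 to 0.06, adjusted p = 0.419), both not called; that of Crabp1 was called with upper-quartile scaling (adjusted p = 0.0163) and without replicate 1 of the cells with neither (0.0124). Aldh1a2 rose by 0.46 with Hoxb1 (SE 0.155, adjusted p = 0.00855), in libraries that overlapped, and fell by 0.61 without Hoxb1 (SE 0.167, adjusted p = 0.00127). The rise was not called with all 18 libraries in 1 fit (adjusted p = 0.106) or without replicate 3 of the Hoxb1 cells (adjusted p = 0.131). Dhrs3 fell by 0.73 with Hoxb1 (SE 0.32, adjusted p = 0.0392), a call lost in DESeq2 (adjusted p = 0.062) and with upper-quartile scaling (adjusted p = 0.0542). It was also lost on leaving out replicate 1 or 2 of the Hoxb1 cells with SAG (0.072 and 0.125) or replicate 1 or 2 of the Hoxb1 cells without it (0.168 and 0.0875). Without Hoxb1 the Dhrs3 change was 0.43 (interval -0.08 to 0.95, adjusted p = 0.126), and 0.91 without replicate 1 of the cells with neither (adjusted p = 0.00635). In all, 4 of 8 genes were called higher and 4 lower with Hoxb1, where 72.2% of all genes were called (36.4% higher and 35.8% lower). Without Hoxb1, 2 were called higher and 3 lower, where 72.7% of all genes were called (36.5% and 36.3%). The libraries did not overlap for 7 of 8 genes with Hoxb1 (74.8% of all genes) and for 5 of 8 without (75.0%). With so many genes called, these counts do not set the retinoid genes apart. For the differences of the Hoxb1 effects by SAG, 3 of 8 were called higher and 2 lower, against 35.5% of all genes called (16.8% higher and 18.6% lower). The SAG comparisons and these differences share their libraries and are not independent of each other. Hoxb1 RNA was itself higher with SAG in the Hoxb1 cells (log2 0.87, SE 0.0371, edgeR adjusted p = 2.11e-19), and its part in them was not tested.

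Markers moved with SAG as well, and their part in these changes was not tested. Mesenchymal and meningeal markers summed to 2430.7 to 2467.5 CPM with SAG against 891.9 to 903.7 CPM without, in cells without Hoxb1, and neural crest markers to 31.1 to 32.5 CPM with SAG against 79.1 to 86.4 CPM without. Of the 9 mesenchymal and meningeal markers 8 were called higher and 1 lower. Zic1 went down, to 220.7 ± 2.77 CPM with SAG against 440.9 ± 9.57 CPM without. Of the 5 neural crest markers 2 were called higher and 3 lower; Tfap2b averaged 2.32 ± 0.37 CPM with SAG against 55.1 ± 4.05 CPM without, and Ets1 23.6 ± 0.59 CPM with SAG against 11.9 ± 0.817 CPM without. Pluripotency markers summed to 309.7 to 339.7 CPM with SAG against 177.0 to 198.2 CPM without, and endoderm markers (2 of 5 at 1 CPM with SAG) to 80.7 to 85.1 CPM with SAG against 8.97 to 11.7 CPM without. Nearly all of the endoderm sum was Foxa2, which averaged 79.0 ± 2.09 CPM with SAG against 8.72 ± 0.819 CPM without. The next highest endoderm marker with SAG was Sox17, at 2.25 ± 0.291 CPM against 0.806 ± 0.114 CPM without. Neuron markers summed to 792.2 to 813.8 CPM with SAG against 1285.3 to 1362.9 CPM without. The library sets differ in depth in the same direction as SAG.

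In Hoxb1-null NMPs, Stra6 and the binding proteins were lower and Cyp26a1 was higher. Of the 7 genes tested, 1 was called higher and 3 lower, where 28.8% of all 15032 genes were called (14.9% higher and 13.9% lower), the libraries did not overlap for 3 of 7 (41.8% of all genes), and the median log2 change was -0.23 against 0.0 over all genes. Stra6 measured 9.45, 9.37 and 8.07 CPM in Hoxb1-null libraries, against 14.1, 13.7 and 12.3 CPM in wild-type libraries, and fell by 0.58 on the log2 scale (SE 0.1, adjusted p = 0.000134; -0.51 and 0.00032 without the null replicate 3). Crabp1 measured 47.5, 48.7 and 43.4 CPM in Hoxb1-null libraries, against 54.8, 56.4 and 53.3 CPM in wild-type ones, and fell by 0.24 (SE 0.0562, adjusted p = 0.0025; -0.19 and 0.00439 without that replicate). Neither pair overlapped.

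Crabp2 measured 28.9, 25.0 and 25.4 CPM in Hoxb1-null libraries, against 30.2, 34.1 and 28.1 CPM in wild-type ones, which overlap. It fell by 0.23 (SE 0.0766, edgeR adjusted p = 0.0286; -0.2 and 0.0484 without the null replicate 3). The call was lost with DESeq2 in place of edgeR (adjusted p = 0.07), and on leaving out replicate 1 or 2 of the wild-type NMPs (0.0524 and 0.245) or replicate 2 of the null NMPs (0.134). Cyp26a1 measured 137.7, 143.6 and 184.7 CPM in Hoxb1-null libraries, against 120.3, 120.1 and 116.8 CPM in wild-type ones. The null libraries lay above all wild-type ones, with replicate 3 the highest, and the rise was 0.38 (SE 0.11, adjusted p = 0.0442). It was 0.24 without that replicate (SE 0.0362, adjusted p = 6.14e-06), and the call was lost on leaving out any 1 wild-type library (adjusted p = 0.0813, 0.0823 and 0.106 without replicates 1, 2 and 3).

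Aldh1a2 measured 35.0, 34.5 and 26.2 CPM in Hoxb1-null NMPs, against 39.9, 46.2 and 34.6 CPM in wild-type NMPs, with null replicate 3 the lowest. The change of -0.34 (SE 0.132, interval -0.64 to -0.03) was not called (adjusted p = 0.0948; -0.22 and 0.129 without that replicate), but was called without a filter on counts (adjusted p = 1.49e-05), with all 18 libraries in 1 fit (adjusted p = 0.0428), without wild-type replicate 3 (0.00808) and without null replicate 1 (0.0438). Dhrs3 averaged 0.865 ± 0.142 CPM in Hoxb1-null and 0.799 ± 0.263 CPM in wild-type NMPs, and Cyp26b1 averaged 0.827 ± 0.266 CPM in Hoxb1-null and 0.786 ± 0.432 CPM in wild-type NMPs. Neither was called (adjusted p = 0.823 and 0.937), with log2 changes of 0.12 and 0.05, and of 0.11 and 0.17 without null replicate 3. Rarb had 6 counts over the null and 6 over the wild-type libraries and was not tested. Cyp26c1 had 11 counts over the null and 2 over the wild-type libraries, also below the filter (log2 2.29 with no filter, adjusted p = 0.0957). Markers moved with the genotype too, with a part that was not tested. Paraxial mesoderm markers summed to 462.3 to 469.3 CPM in Hoxb1-null libraries (6 of 7 at 1 CPM) against 544.5 to 600.4 CPM in wild-type ones (4 of 7), with 2 called higher and 2 lower. Msgn1 averaged 307.6 ± 4.56 CPM in Hoxb1-null and 359.6 ± 20 CPM in wild-type libraries, and Tbx6 averaged 151.3 ± 7.38 CPM in Hoxb1-null and 199.1 ± 12.2 CPM in wild-type libraries. Hindbrain markers summed to 144.8 to 162.8 CPM in Hoxb1-null against 246.1 to 274.2 CPM in wild-type libraries, with 3 of 6 called lower. Pluripotency markers summed to 517.5 to 568.6 CPM in Hoxb1-null against 393.7 to 419.4 CPM in wild-type libraries, with 3 of 5 called higher. Nearly all of this sum was Pou5f1, at 509.8 ± 26 CPM in Hoxb1-null and 385.0 ± 13.1 CPM in wild-type libraries. Nanog averaged 11.4 ± 2.26 CPM in Hoxb1-null and 11.8 ± 0.59 CPM in wild-type libraries. Lateral and cardiac mesoderm markers summed to 97.7 to 119.4 CPM in Hoxb1-null against 76.8 to 80.8 CPM in wild-type libraries, with 2 of 5 tested called higher. The 6 NMP markers, with the sums given above, were all called lower.

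Set beside each other by length, Cyp26a1 and Cyp26b1 exchanged places between cell types. Summed over Cyp26a1, Cyp26b1 and Cyp26c1, the level per kb of exon was 6.48 ± 0.244 CPM per kb in Hoxb1 cells with SAG, against 2.51 ± 0.0377 with SAG alone, and 97.7 ± 3.49 in Hoxb1 cells without SAG, against 41.7 ± 1.67 with neither. In NMPs it was 87.9 ± 14.4 CPM per kb in Hoxb1-null and 67.3 ± 1.16 in wild-type libraries, and the null libraries other than replicate 3 were at 78.1 and 81.3 CPM per kb. Cyp26a1 made up 99.6% of this sum in Hoxb1-null and 99.7% in wild-type NMPs, while in neural progenitors without SAG Cyp26b1 made up 99.7% with Hoxb1 and 99.0% with neither. With SAG, Cyp26b1 made up 89.2% ± 0.757 with Hoxb1, against 50.9% ± 3.49 with SAG alone, the rest being mostly Cyp26a1 (9.98% with Hoxb1 and 47.3% with SAG alone).

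The summed level per kb of Crabp1 and Crabp2 was 534.2 ± 16.7 CPM per kb in Hoxb1 cells with SAG, against 45.9 ± 1.53 with SAG alone, and 551.2 ± 10.3 in Hoxb1 cells, against 44.8 ± 2.64 with neither. Crabp1 was 73.8% and 81.2% of it with Hoxb1 (with SAG and without) and 47.7% and 44.5% in the cells without Hoxb1. In NMPs the sum was 78.0 ± 4.06 CPM per kb in Hoxb1-null and 91.7 ± 4.21 in wild-type libraries, with 74.3% from Crabp1 in Hoxb1-null and 74.6% in wild-type libraries. Of the Aldh1a sum, Aldh1a2 made up 98.4% in Hoxb1-null and 98.3% in wild-type NMPs, but 46.3% in Hoxb1 cells with SAG, 52.0% with SAG alone, 66.5% with Hoxb1 alone and 74.0% with neither. In neural progenitors the rest was mostly Aldh1a3, another retinaldehyde dehydrogenase (40.1% in Hoxb1 cells with SAG, 37.1% with SAG alone, 29.4% with Hoxb1 alone and 16.6% with neither).

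**Figure D3:**
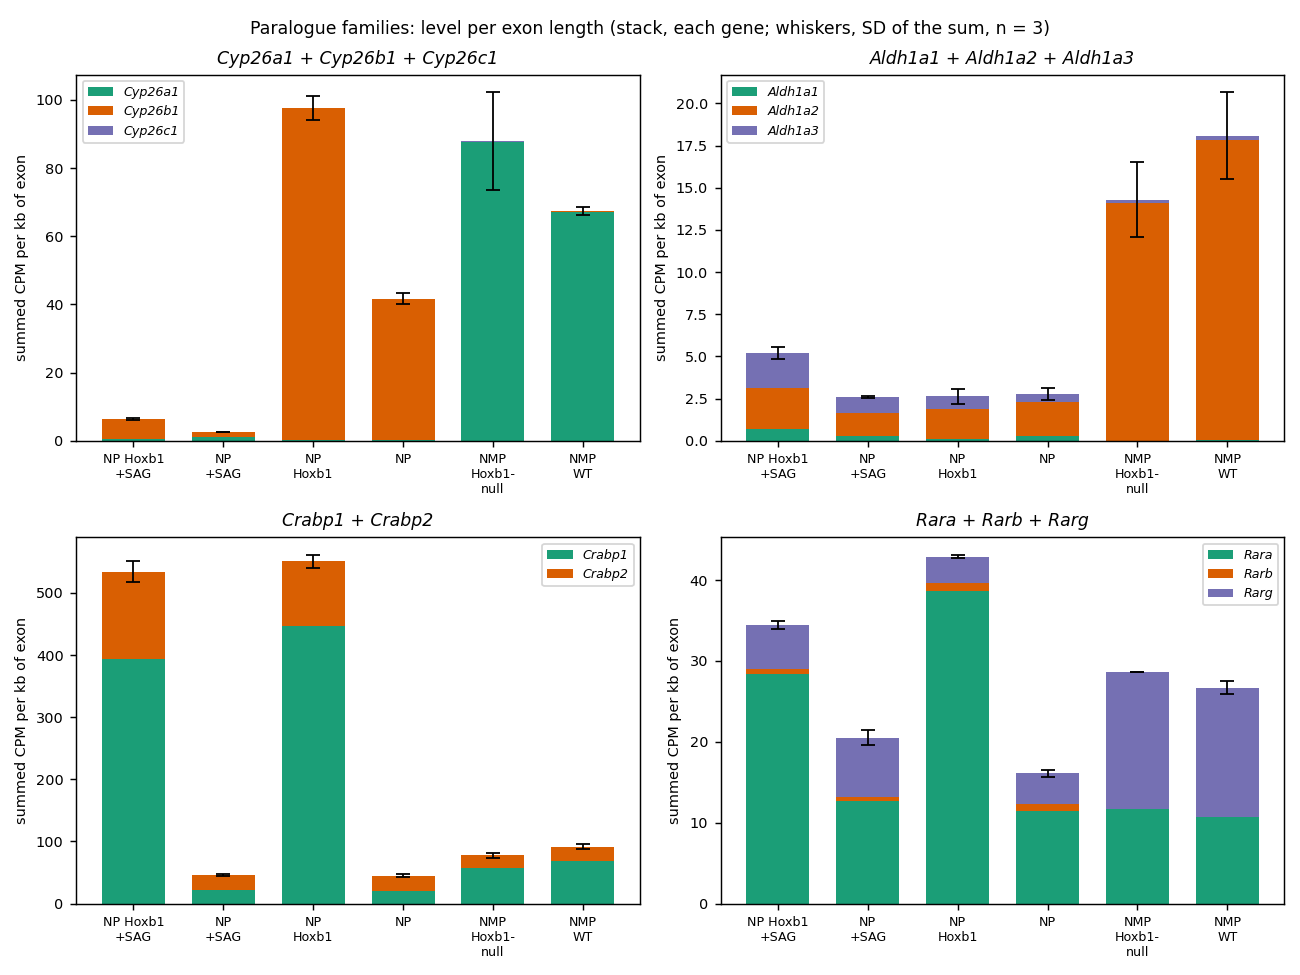
Level per exon length (y axes, summed CPM per kb, from 0) of the Cyp26, Aldh1a, Crabp and retinoic acid receptor genes in the 6 groups (x axes); each stack is the mean of 3 libraries, colours are genes and whiskers SD of the sum. The Cyp26 stack is Cyp26a1 in NMPs and Cyp26b1 in neural progenitors without SAG, and the Crabp stacks with Hoxb1 reach 534.2 and 551.2 CPM per kb.

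Between cell types the levels are described without a test, since NMPs and neural progenitors came in separate sets of libraries. Aldh1a2 and Cyp26a1 were higher in every wild-type NMP library (34.6 to 46.2 and 116.8 to 120.3 CPM) than in any of the 12 neural progenitor libraries (2.83 to 6.13 and 0.14 to 2.26 CPM). Rarb and Cyp26b1 were lower in every wild-type NMP library (0.0581 to 0.206 and 0.29 to 1.08 CPM) than in any neural progenitor library (1.17 to 3.45 and 5.83 to 491.0 CPM). For Crabp1, wild-type NMPs lay between the groups, below both Hoxb1 groups and above both without it. From high to low, Crabp1 ran from Hoxb1 cells without SAG through Hoxb1 cells with SAG, wild-type NMPs, Hoxb1-null NMPs, SAG alone and neither, and only the last 2 of these overlapped. Crabp2 had group means of 26.5 to 32.8 CPM in the 4 groups without induced Hoxb1, and each neighbour in the order overlapped the next, while the Hoxb1-null NMPs at the low end lay below all neural progenitor libraries. Dhrs3 never passed 2.26 CPM in a library, and each group overlapped the next in order.

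By the distance of their centred log2(CPM + 0.5) profiles over the 18 libraries, the nearest genes among 13294 compared were Arid3c and Cpne7 to Crabp1 (root mean square difference 0.6 and 0.61), Ankrd63 and Insc to Crabp2 (0.34 each) and Abhd11os and Greb1l to Stra6 (0.31 and 0.43). To Cyp26b1 they were Tfap2b and Nhlh1 (0.66 and 0.69), to Cyp26a1 Rasgrp3 and Wnt2b (0.45 and 0.53), and to Aldh1a2 Hoxc5 and Grsf1 (0.26 and 0.29). To Rarb they were Kif5c and Lrrc8b (0.18 and 0.19) and to Dhrs3 Mrm1 and Lpcat2 (0.28 each). These are log2 distances over libraries that share sets and depth, and carry no test. The profile of Crabp1 itself spread by 1.78 around its mean on this scale and that of Dhrs3 by 0.42, so that a given distance says less for Dhrs3.

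Among the other receptors (Rara, Rarg, Rxra, Rxrb and Rxrg), 2 of 5 were called higher and 1 lower with Hoxb1, with SAG and without, where 43.4% and 46.2% of all genes were called. Rara, the receptor expressed most widely, averaged 124.1 ± 2.31 CPM in Hoxb1 cells with SAG, against 55.5 ± 2.52 CPM with SAG alone (log2 1.17, SE 0.036, edgeR adjusted p = 8.1e-28), and 168.9 ± 0.98 CPM in Hoxb1 cells, against 50.1 ± 1.42 CPM with neither (1.76, SE 0.0406, adjusted p = 3.39e-32). Rxra, a heterodimer partner of the receptors, rose by 0.25 with SAG (adjusted p = 4.85e-07) and by 0.48 without (adjusted p = 2.27e-12). Rarg fell by 0.43 with SAG (adjusted p = 3.12e-08) and by 0.21 without (adjusted p = 0.0408). Per kb of exon, Rara made up 82.6% of the receptor sum of Rara, Rarb and Rarg in Hoxb1 cells with SAG against 62.0% with SAG alone, and 90.1% in Hoxb1 cells against 71.3% with neither. Rarg was the larger share in NMPs, at 59.1% in Hoxb1-null and 60.0% in wild-type libraries. In NMPs only Rxrg of the 5 was called (10.5 ± 0.763 CPM in Hoxb1-null and 6.37 ± 1.24 CPM in wild-type libraries, log2 0.73, SE 0.124, adjusted p = 0.000109; 0.67 and 0.000188 without null replicate 3).

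Of 25 other genes of retinoid transport and metabolism, 16 were tested in neural progenitors. With Hoxb1, 6 were called higher and 1 lower with SAG, and 5 higher and 3 lower without. These shares, 43.8% and 50% of the genes tested, are near the 43.4% and 46.2% over all genes. Cyp1b1, a cytochrome P450 that can oxidise retinoids, averaged 87.2 ± 3.57 CPM in Hoxb1 cells with SAG, against 45.3 ± 1.6 CPM with SAG alone, and 33.3 ± 2.68 CPM in Hoxb1 cells, against 12 ± 0.468 CPM with neither (log2 0.95 and 1.48, edgeR adjusted p = 8.85e-22 and 2.4e-20). Fabp5, another carrier of retinoic acid, rose by 0.4 and 0.73 (adjusted p = 5.76e-09 and 2.95e-11), and Aldh1a3 by 1.13 and 0.75 (adjusted p = 5.19e-13 and 0.000615), each with SAG and without.

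Rdh10, the retinol dehydrogenase of the embryo, differed between the SAG states. It averaged 45.3 ± 0.785 CPM in Hoxb1 cells with SAG, against 18.9 ± 0.871 CPM with SAG alone (log2 1.26, SE 0.0528, edgeR adjusted p = 3.36e-23), and 17.9 ± 0.637 CPM in Hoxb1 cells, against 18.6 ± 1.26 CPM with neither (-0.04, interval -0.2 to 0.11, adjusted p = 0.661). Of the other Rdh and Adh genes tested, Rdh11 was called higher with Hoxb1 and SAG (log2 0.13, adjusted p = 0.0253). In that comparison Rdh5, Rdh12, Rdh13, Rdh14, Adh5 and Adh7 were not called. Without SAG, Rdh11 (0.37, adjusted p = 8.19e-07) and Adh5 (0.19, adjusted p = 0.000106) were called higher with Hoxb1, and the rest of these were not called. Dhrs4, a short-chain dehydrogenase of the same list, fell by 0.2 with Hoxb1 and SAG (adjusted p = 0.00372). In Hoxb1-null NMPs, 1 of 14 tested genes of this list was called higher and 2 lower (21.4%, against 28.8% of all genes). Cyp1b1 averaged 4.42 ± 0.564 CPM in Hoxb1-null and 2.66 ± 0.198 CPM in wild-type NMPs (log2 0.73, adjusted p = 0.00148; 0.62 and 0.00692 without null replicate 3). Bco2, a carotenoid-cleaving oxygenase, averaged 0.4 ± 0.0279 CPM in Hoxb1-null and 1.81 ± 0.0903 CPM in wild-type NMPs (-2.16, SE 0.291, adjusted p = 6.34e-06; -2.22 and 1.28e-05 without that replicate), and Fabp5 averaged 17.6 ± 1.08 CPM in Hoxb1-null and 24.6 ± 1.1 CPM in wild-type NMPs (-0.48, adjusted p = 4.31e-05; -0.49 and 1.8e-05 without it).

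**Figure D4:**
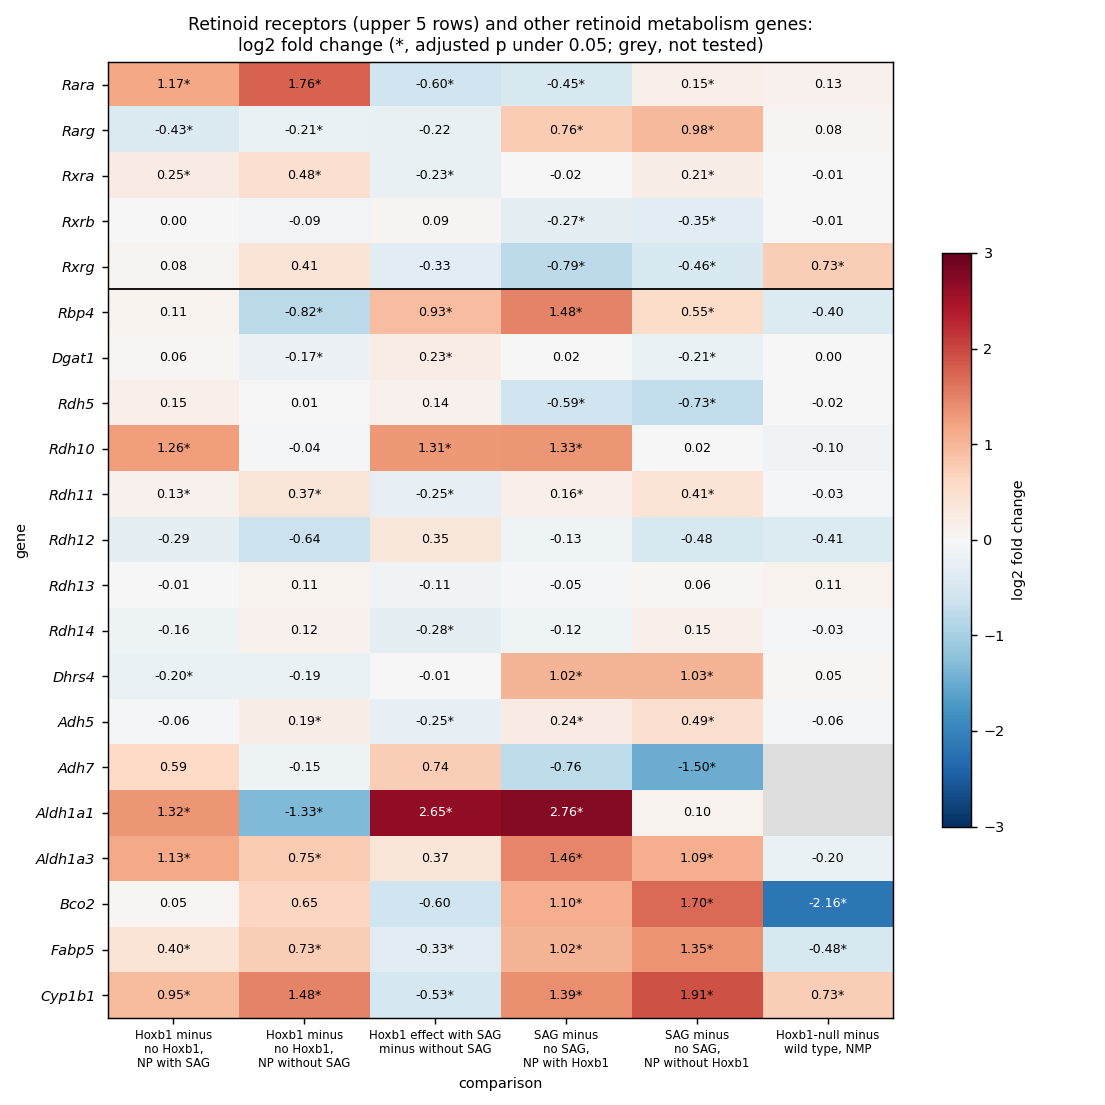
edgeR log2 fold changes (colour and printed value; asterisk, adjusted p under 0.05; grey, not tested) of the other retinoid receptors and metabolism genes (rows) in the 6 comparisons (columns). Rara, Rxra, Fabp5, Cyp1b1, Aldh1a3 and Rdh11 were called higher with Hoxb1 in both SAG states, and Rdh10 with SAG (1.26) but not without (-0.04).

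Of 17 genes listed as responsive to retinoic acid, 13 were tested in neural progenitors. With Hoxb1, 7 were called higher and 4 lower with SAG (84.6%, against 43.4% of all genes), and 8 higher and 5 lower without (13 of 13, against 46.2% of all genes). The induced gene Hoxb1 is itself 1 of those called higher. The homeobox genes Meis1 and Meis2 averaged 142.9 ± 5.78 and 90.1 ± 2.34 CPM in Hoxb1 cells with SAG, against 47.6 ± 0.433 and 34.3 ± 0.0957 CPM with SAG alone. Their log2 changes were 1.59 and 1.4 with SAG (edgeR adjusted p = 1.72e-32 and 9.98e-30) and 1.44 and 1.46 without (adjusted p = 1.18e-30 and 1.57e-31). Hoxb4, a more posterior Hox gene, averaged 13.5 ± 0.512 CPM in Hoxb1 cells with SAG, against 2.45 ± 0.133 CPM with SAG alone, and 6.05 ± 0.857 CPM in Hoxb1 cells, against 0.427 ± 0.145 CPM with neither (log2 2.47 and 3.81, adjusted p = 1.35e-22 and 3.42e-17). In NMPs 15 genes of this list were tested, Hoxb1 again included, and 3 were called higher and 5 lower in Hoxb1-null cells (53.3%, against 28.8% of all genes). Of these Cdx1 was not called without null replicate 3 (adjusted p = 0.176). Hoxb4 averaged 5.73 ± 1.72 CPM in Hoxb1-null and 15.2 ± 1.44 CPM in wild-type NMPs (log2 -1.42, adjusted p = 2.44e-07; -1.27 and 3.66e-08 without that replicate). Among 12 cofactors of the receptors, 2 were called with Hoxb1 and SAG, both higher (16.7%, against 43.4% of all genes). With Hoxb1 alone 2 were called higher and 6 lower (66.7%, against 46.2%), and in Hoxb1-null NMPs 2 higher and 1 lower (25.0%, against 28.8%).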

How the data were processed

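RNA was measured in 18 libraries of mouse embryonic stem cell derivatives, in 6 groups of 3. Per the labels' protocols, polyadenylated RNA was enriched with a poly-dT kit, and strand-specific libraries were made with 15 PCR cycles. The submitters' processing notes name bcl2fastq 1.8.2, featureCounts 1.4.6 and mm10. The deposited table holds raw counts for Ensembl genes, not normalized by the authors, and covers 37224 genes. Aligner, annotation release, strand setting and multi-mapping rule were not given in the sources used here. No exon of the 9 genes overlaps an exon of another gene in the table, but without the strand setting intronic antisense reads cannot be judged.

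Of the Ensembl IDs, 35449 could be given a symbol. Tests were made in R 4.3.3 with edgeR 4.0.16: filterByExpr by group, TMM factors, quasi-likelihood F-tests with robust estimation, and Benjamini-Hochberg adjustment over all tested genes. Calls were made below an adjusted p of 0.05. The fit of NMPs used their 6 libraries alone (15032 genes, 4 residual degrees of freedom), and that of neural progenitors used all 12 of theirs (16238 genes, 8 residual degrees of freedom). Each standard error (SE) was obtained as the log2 fold change over the root of F. Levels are CPM with TMM factors over all 18 libraries (0.916 to 1.07), and per kb of the exon length in the deposited table where genes are compared. Total counts were 13301476 to 26974315 per library, and reads carry no molecular identifiers, so counting error is the least error a level can have.

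The 9 genes and all lists were chosen with earlier results of these data known. The text gives all 9 genes whatever their values. Of the receptor, metabolism, cofactor and retinoid-responsive lists it may name the called genes with at least 1 CPM in a group, and values of others shown were chosen after they were seen. Some genes of these lists are not reported here and are in none of their counts. The 2 genes most like each one had the smallest root mean square difference of centred log2(CPM + 0.5) over the libraries. Alternatives were DESeq2 1.42.0, RLE and upper-quartile scaling, no filter and a filter of 1 CPM in 3 libraries, 1 fit of all libraries, only the groups compared, a replicate block and leaving out each library. The statistical code was tested on simulated data. Protein sequences were not used here.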

Additional observations from a re-analysis of the deposited data

Results flagged for a closer look

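For the results below the effect of Hoxb1 differed between cells with and without SAG, by the test of the difference itself (edgeR, adjusted p under 0.05). Each value is the log2 effect of Hoxb1 with SAG minus that without SAG. The test runs across library sets, so SAG and the set cannot be told apart, and 35.5% of all genes tested were called. The level of Hoxb1 RNA differed too. In Hoxb1 cells it was 591.2 ± 21.2 CPM with SAG against 323.1 ± 16 CPM without (log2 0.87, SE 0.0371, edgeR adjusted p = 2.11e-19). The part of the Hoxb1 level in these differences was not tested. Among the retinoid genes the difference was 1.07 for Aldh1a2, 0.93 for Cyp26b1, 0.48 for Crabp2, -0.32 for Crabp1 and -1.16 for Dhrs3. Aldh1a2 and Dhrs3 were called with Hoxb1 in the cells with SAG, while Cyp26b1, Crabp2 and Crabp1 were called higher in both states and differed in size.

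Among the receptors the difference was -0.6 for Rara and -0.23 for Rxra, whose rise was smaller with SAG. Among the metabolism genes it was 2.65 for Aldh1a1, 1.31 for Rdh10, 0.93 for Rbp4 and 0.23 for Dgat1. It was -0.53 for Cyp1b1, -0.33 for Fabp5, -0.28 for Rdh14, -0.25 for Adh5 and -0.25 for Rdh11. Aldh1a1, a retinaldehyde dehydrogenase of the eye and dorsal retina, rests on low levels: 1.46 ± 0.115 CPM in Hoxb1 cells with SAG against 0.582 ± 0.285 CPM with SAG alone, and 0.21 ± 0.0643 CPM in Hoxb1 cells against 0.546 ± 0.183 CPM with neither.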

How the results depend on the processing

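Of 47 tests of the 9 genes, 33 were called, and 26 of these kept their call under every alternative; 7 lost it under at least 1, and none turned its sign. Of the tests not called, 4 were called under at least 1 alternative. The calls of Crabp1, Crabp2, Stra6 and Cyp26b1 with Hoxb1 held in all 20 alternatives with SAG and without it. Leaving out 1 library moved the number of the 9 genes called to 2 to 5 in Hoxb1-null NMPs (2 without wild-type replicate 1 or 2, of 4 called), to 7 with Hoxb1 and SAG, 4 to 5 with Hoxb1 alone, 4 to 5 for the difference of these effects, 7 to 8 for SAG with Hoxb1 and 5 to 7 for SAG without Hoxb1. All values that turned their sign came from tests not called, on leaving out 1 library. They were -0.1 for Dhrs3 and -0.34 for Cyp26b1 in Hoxb1-null NMPs without wild-type replicate 3, and -0.01 and -0.23 without null replicate 1 (leave-one-out ranges -0.1 to 0.33 and -0.34 to 0.4). With Hoxb1 alone Dhrs3 was 0.3 without replicate 1 of the cells with neither (range -0.5 to 0.3). For the difference of effects Stra6 was 0.05, 0.06, 0.01 and 0.07 (without replicate 3 of SAG alone, replicates 2 and 3 of neither and replicate 1 of Hoxb1 alone; range -0.17 to 0.07), Rarb -0.08 (without replicate 2 of neither; range -0.08 to 0.3) and Cyp26a1 0.19 (without replicate 3 of neither; range -0.87 to 0.19). The cause was not tested.

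Libraries with the same replicate number did not deviate together in every pair of groups (correlations of -0.0459 to 0.198). With the replicate block, the number of the 9 genes called was 5 in NMPs (Aldh1a2 added, adjusted p = 0.000256), 7 with Hoxb1 and SAG, 4 with Hoxb1 alone, 5 for their difference, 8 for SAG with Hoxb1 and 5 for SAG without it. Depth limits Cyp26c1, Rarb in NMPs, and Cyp26a1 and Dhrs3 in neural progenitors, where libraries held 2 to 60 and 10 to 54 counts.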
